A study of Mus musculus with 6 samples.

Results

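The genes described here are 34 genes of cholesterol and fatty acid synthesis, of 24470 listed in the deposited table of counts per gene. They were chosen by symbol: the regulators of the sterol-responsive transcription factors called SREBPs, the enzymes that make sterols and fatty acids, and genes of sterol transport and export. All 34 were in the table, and all 34 passed the filter on low counts, which left 11666 genes for testing. The libraries are from naive CD4+ T cells, helper T cells that have not met antigen. These came from male C57BL/6J mice, out of both spleen and skin-draining lymph nodes, and were separated by MACS. In the CCL19 group, cells were cultured for 6 h with recombinant mouse CCL19, a CCR7 ligand of lymph node T cell zones. The culture was on immobilized antibodies to CD3 and CD28 coated at 1 µg/mL in 200 µL of medium. In the NoCKN group, called no-CCL19 here, cells had the same antibodies and time without the chemokine, so every library comes from stimulated cells and none from resting ones. Each group has 3 libraries. The sources used here give neither the CCL19 dose nor the age of the mice. Nor do the labels state that the replicates are different mice or wells, so each p-value reflects variation among these 6 samples alone, and part or all of that variation may be technical.

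Cells make cholesterol from acetyl-CoA through mevalonate, squalene and lanosterol, and make fatty acids from the same acetyl-CoA through malonyl-CoA. SREBP proteins switch on the genes of both routes when sterols in the membrane of the endoplasmic reticulum run low: the escort SCAP carries them to the Golgi, where they are cut free, while INSIG proteins hold them back. T cells that leave the resting state are known to raise this programme, because growth and division need new membrane. On sterol content alone, the liver X receptors act the other way by inducing sterol exporters.

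The libraries held 16978736 to 26980697 counts in the CCL19 group and 18203667 to 27429898 in the no-CCL19 group. The 9 markers fixed for naive CD4+ T cells summed to 4088, 4381 and 5036 CPM (counts per 1000000 of the library, scaled by edgeR's TMM factors) in CCL19 replicates 1, 2 and 3, against 5869, 4869 and 5213 CPM in the no-CCL19 libraries. All 9 were detected, and DESeq2 called 3 of them (Lef1, Tcf7 and Ccr7) lower with CCL19, against 5.60% of all genes. The log2 fold change, CCL19 over no CCL19, was below 0 in all 9, from -0.03 for Cd3e to -0.35 for Tcf7. Markers of macrophages, monocytes and dendritic cells, which also use sterol exporters, summed to 9.09 to 12.9 CPM in CCL19 libraries and 8.74 to 15.0 CPM in no-CCL19 libraries, with C1qb at 0 in every library. B cell markers summed to 32.4 to 36.3 against 32.6 to 40.3 CPM, CD8 T cell markers to 12.4 to 17.2 against 14.6 to 15.0 CPM, natural killer markers to 1.39 to 2.55 against 2.22 to 3.43 CPM, neutrophil markers to 1.26 to 7.37 against 2.99 to 5.04 CPM, and red cell and platelet markers to 15.4 to 16.2 against 11.3 to 18.0 CPM, with Ppbp at 0. The stromal and endothelial list summed to 190 to 243 against 233 to 277 CPM, nearly all of it Pecam1, which lymphocytes also express, with Pdpn at 0.

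Between CCL19 and no-CCL19 libraries, 1 of the 34 genes passed a test after adjustment, in 1 of the 3 tools run. Acaca, which encodes the acetyl-CoA carboxylase that commits carbon to fatty acids, was the 1 gene of the 34 that DESeq2 called, at 76.2 ± 13.2 CPM with CCL19 and 57.4 ± 8.28 CPM without it (SD, n = 3 each; 1.33-fold). edgeR's quasi-likelihood test called 0 of the 34 genes at an adjusted p under 0.05, as it did 0 of all genes tested (0%), and limma-voom also called 0 (0%). At an unadjusted p under 0.05, edgeR gave 8 of the 34 higher, against 14.5% of all tested genes, and 2 lower, against 13.0%. Both directions together made 29.4% of the 34 genes and 27.5% of all tested genes, and limma-voom gave 11 of the 34 at that level, against 27.7% of all. DESeq2's 1 call, of 33 genes to which it gave an adjusted p, is 3.03%, against 12.2% of all genes. By direction, DESeq2 called 1 higher, against 6.55% of all genes, and 0 lower, against 5.60%. Of the 34, 19 had a log2 fold change above 0, against 49.8% of all tested genes. The list's median log2 fold change was 0.03, against -0.0007 over all tested genes, and its median absolute log2 fold change was 0.11, against 0.16.

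The 2 groups did not overlap for 12 of the 34 genes (35.3%), against 29.8% of all tested genes. CCL19 stood above in 7 of them (Acaca, Idi1, Sqle, Cyp51, Msmo1, Hsd17b7 and Elovl1), against 15.3% of all tested genes, and below in 5 (Mvk, Mvd, Dhcr7, Elovl6 and Abcg1), against 14.5%. An absolute log2 fold change above 0.2 was seen in 12 genes (35.3%), against 39.2% of tested genes. The range was -0.33 to 0.58, which means that no gene of the list moved as much as 2-fold.

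**Figure D1:**
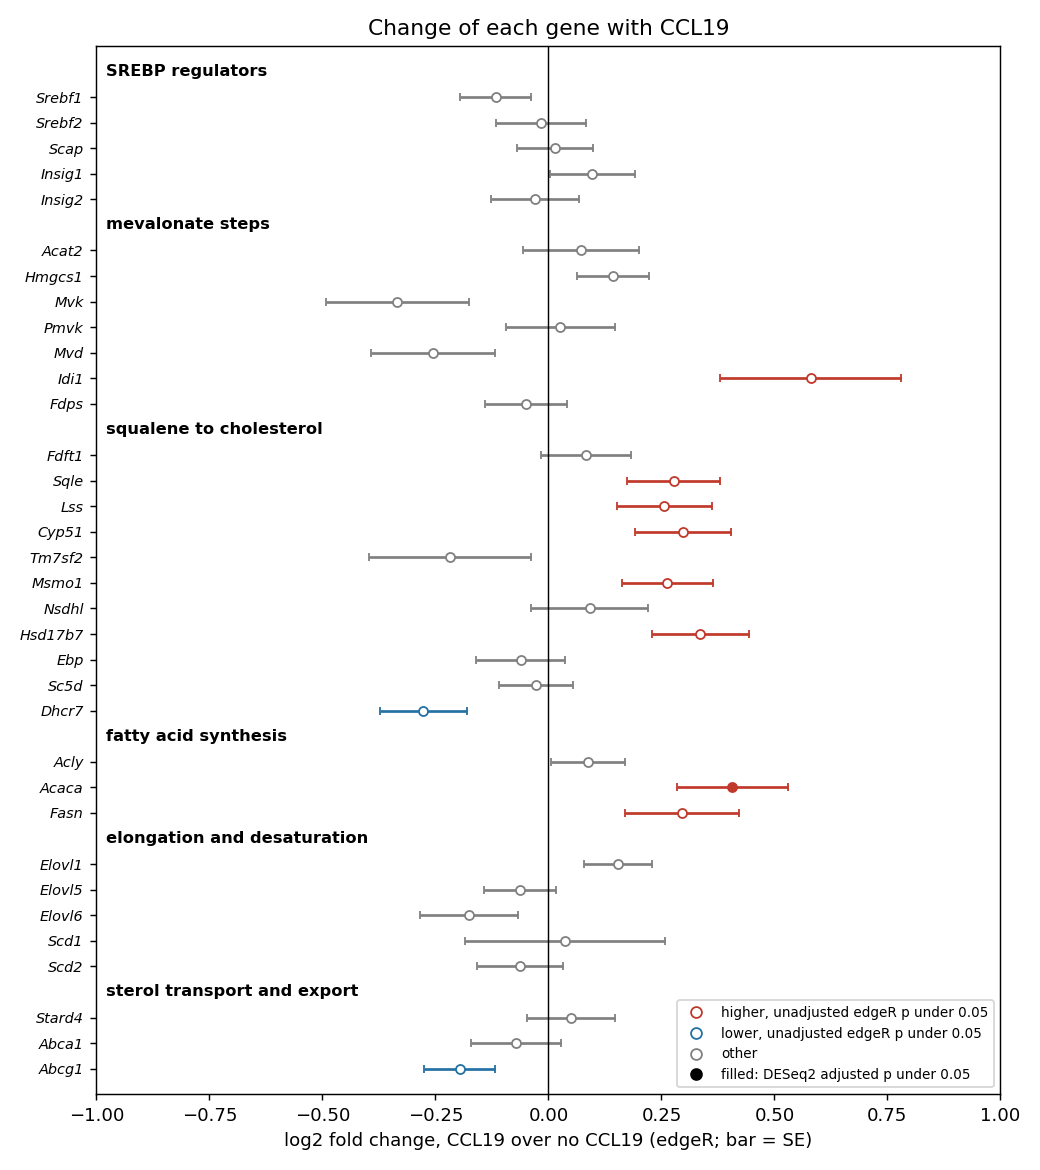
Log2 fold change of each of the 34 genes, CCL19 over no CCL19, with the SE from the edgeR fit of 3 libraries a group, grouped by role. Red and blue mark unadjusted edgeR p under 0.05 (8 higher, 2 lower), and the filled point, Acaca, is the 1 gene with a DESeq2 adjusted p under 0.05.

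Levels can be set against each other only per length, here as CPM per kb of annotated exon. On that scale Fasn, which encodes fatty acid synthase, was the most abundant transcript of the list at 82.6 CPM per kb with CCL19 and 67.3 without. Acly, the citrate lyase that supplies cytosolic acetyl-CoA, and Srebf2 followed at 60.5 and 56.6 CPM per kb with CCL19, against 56.9 and 57.2 without, so the order of this pair changed with the group while their libraries overlapped. Scd1 was the lowest at 0.551 CPM per kb with CCL19 and 0.533 without. The per-length order of the genes Elovl1, Elovl5, Scap, Srebf1 and Insig1, which came next, was the same in both groups.

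**Figure D2:**
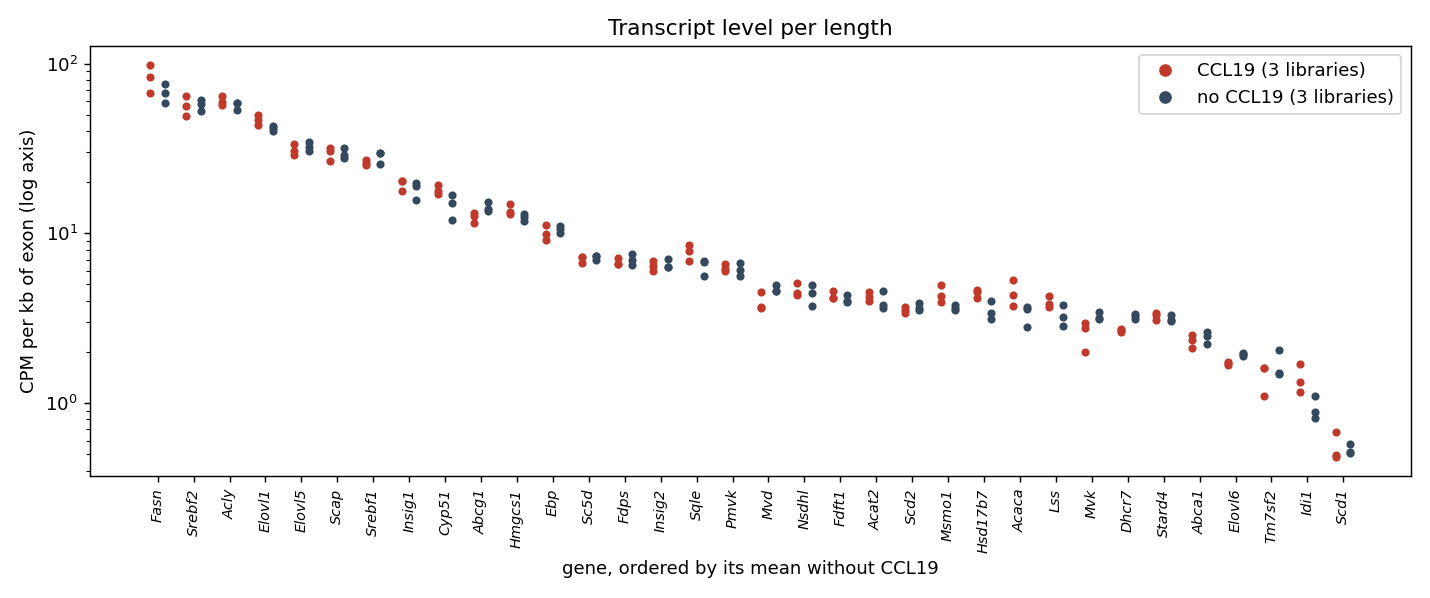
Level of each gene in CPM per kb of exon on a log axis, 3 CCL19 libraries (red) and 3 no-CCL19 libraries (dark blue), ordered by the mean without CCL19. Levels span Fasn, at 82.6 and 67.3 CPM per kb, to Scd1, at 0.551 and 0.533, and the groups lie close together for nearly every gene.

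Of the 5 regulators, none differed between the groups beyond their spread, and the groups overlapped in every one. Srebf2 encodes SREBP2, the factor mainly of cholesterol genes, and had 461, 406 and 353 CPM in CCL19 replicates 1, 2 and 3, against 414, 440 and 379 CPM in the no-CCL19 libraries (log2 fold change -0.02 ± 0.10, SE; edgeR adjusted p = 0.933). Srebf1 encodes the SREBP1 proteins, which act mainly on fatty acid genes, and had 153, 146 and 142 CPM with CCL19, against 167, 167 and 144 CPM without (-0.12 ± 0.08; edgeR adjusted p = 0.349). Replicate 3 was the lowest of its group for both of these genes.

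Scap, the sterol-sensing escort, had 238, 227 and 200 CPM in CCL19 libraries, against 215, 236 and 206 CPM in no-CCL19 libraries (0.01 ± 0.08; edgeR adjusted p = 0.929). Insig1, a retention factor that is itself an SREBP target, had 62.6, 62.5 and 55.3 CPM with CCL19, against 48.8, 61.3 and 58.5 CPM without (0.10 ± 0.09; edgeR adjusted p = 0.530). Insig2, its paralog, had 24.0, 20.9 and 22.4 CPM with CCL19, against 24.6, 22.0 and 21.9 CPM without (-0.03 ± 0.10; edgeR adjusted p = 0.871). No-CCL19 replicate 1 was the low library for Insig1, and its value set most of the difference: without it the log2 fold change was 0.00. Per length, Srebf2 exceeded Srebf1 by 1.95 to 2.37 times in CCL19 libraries and 1.95 to 2.07 times in no-CCL19 libraries, and Insig1 exceeded Insig2 by 2.77 to 3.36 and 2.23 to 3.12 times.

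Among the 7 genes of the mevalonate steps, 1 stood higher (against 14.5% of all tested genes) and none lower (against 13.0%) at an unadjusted p under 0.05, and none passed after adjustment. The higher gene was Idi1, the isomerase that makes the reactive isoprene unit, with 5.96, 4.66 and 4.08 CPM in CCL19 libraries, against 3.10, 2.88 and 3.85 CPM in no-CCL19 libraries. Its log2 fold change of 0.58 ± 0.20 (SE; edgeR adjusted p = 0.0893, DESeq2 adjusted p = 0.0892) was the largest of the list, at a low level: it rested on 99, 124 and 88 reads with CCL19 and 75, 79 and 71 without. The groups did not overlap, but CCL19 replicate 3 and no-CCL19 replicate 3 lay next to each other.

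Mvk, the mevalonate kinase, lay in the other direction with 7.40, 7.96 and 5.33 CPM with CCL19, against 8.52, 9.21 and 8.36 CPM without (-0.33 ± 0.16; edgeR adjusted p = 0.185). CCL19 replicate 3 was its low library, and without that library the log2 fold change was -0.18. Mvd, the decarboxylase that ends the mevalonate phosphate steps, had 6.86, 6.76 and 8.35 CPM with CCL19, against 9.22, 8.52 and 8.47 CPM without (-0.26 ± 0.14; edgeR adjusted p = 0.245). For both Mvk and Mvd every CCL19 library lay below every no-CCL19 library, by a small margin.

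The other 4 mevalonate genes showed smaller differences. Hmgcs1, the synthase that joins acetoacetyl-CoA with acetyl-CoA, averaged 63.1 ± 4.43 CPM in CCL19 libraries and 57.0 ± 2.79 CPM in the others (log2 fold change 0.14), and its groups overlapped only between CCL19 replicate 2 and no-CCL19 replicate 3, at 59.6 and 59.7 CPM. Acat2, the cytosolic thiolase at the start of the route, averaged 10.8 CPM with CCL19 and 10.2 CPM in the other libraries (0.07 ± 0.13). The phosphomevalonate kinase Pmvk (0.03) and the farnesyl diphosphate synthase Fdps (-0.05) were close to 0.

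Promoters, 250 bases before to 50 after each annotated start, were available for 27 of the 34 genes, 36 promoters in all, from RefSeq on GRCm38.p6, the assembly that mm10 names. The sterol regulatory element, searched as TCACNCCAC on both strands, was found in 1 of the 27 genes, Hmgcs1 (3.70%), against 1.33% of tested genes and 1.44% of all genes in the promoter table. There it began 137 bases before the start. The CCAAT box, bound by NF-Y, a partner of SREBPs, was found as CCAAT on either strand in 22 of 27 genes (81.5%), against 43.0% of tested genes. The GC box GGGCGG was found in 22 genes (81.5%, against 69.2% of tested genes) and the E-box CACGTG in 7 (25.9%, against 12.1%). Of the 8 genes that stood higher at an unadjusted p under 0.05, 7 had a promoter and 6 of those held a CCAAT box, as did 16 of the 20 other genes with a promoter. No match says only that these letters are not in this window. The promoters of 3 mevalonate genes are shown because Hmgcs1 held the sterol element, while Idi1 and Mvk had the highest and the lowest fold change of the list, and all 3 hold CCAAT boxes. Capitals mark the sterol regulatory element, the 9-base run in Hmgcs1, and every CCAAT box or its complement ATTGG, from chr13:119690101-119690400 (Hmgcs1, plus strand), chr13:8885356-8885655 (Idi1, plus strand) and chr5:114444019-114444318 (Mvk, plus strand).
Hmgcs1: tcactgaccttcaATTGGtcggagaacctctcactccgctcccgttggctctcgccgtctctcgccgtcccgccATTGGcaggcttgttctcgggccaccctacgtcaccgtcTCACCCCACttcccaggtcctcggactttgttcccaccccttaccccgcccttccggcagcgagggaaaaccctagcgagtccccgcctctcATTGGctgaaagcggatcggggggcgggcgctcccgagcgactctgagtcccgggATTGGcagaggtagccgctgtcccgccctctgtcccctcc
Idi1: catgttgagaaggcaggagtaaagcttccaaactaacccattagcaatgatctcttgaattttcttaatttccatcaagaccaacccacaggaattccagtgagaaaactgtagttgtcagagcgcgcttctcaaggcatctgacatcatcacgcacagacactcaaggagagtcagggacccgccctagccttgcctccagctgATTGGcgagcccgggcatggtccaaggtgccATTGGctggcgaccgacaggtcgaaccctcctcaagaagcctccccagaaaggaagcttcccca
Mvk: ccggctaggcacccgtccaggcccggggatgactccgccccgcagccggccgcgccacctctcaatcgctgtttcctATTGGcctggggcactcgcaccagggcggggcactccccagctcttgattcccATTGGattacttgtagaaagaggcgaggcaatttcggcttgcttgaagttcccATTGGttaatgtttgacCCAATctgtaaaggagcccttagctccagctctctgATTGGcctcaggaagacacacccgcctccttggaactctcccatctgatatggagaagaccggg

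None of the 11 enzymes from squalene to cholesterol passed in edgeR or DESeq2 after adjustment. At an unadjusted edgeR p under 0.05, 5 stood higher, against 14.5% of all tested genes, and 1 lower, against 13.0%, and the group's median log2 fold change was 0.09. Hsd17b7, a keto-reductase of the sterol ring, had 23.7, 21.3 and 23.1 CPM in CCL19 libraries, against 16.0, 20.3 and 17.4 CPM in no-CCL19 libraries (0.34 ± 0.11, SE; edgeR adjusted p = 0.0770, DESeq2 adjusted p = 0.0625). Cyp51, the lanosterol demethylase, had 84.5, 78.3 and 74.9 CPM with CCL19, against 52.8, 74.2 and 66.3 CPM without (0.30 ± 0.11; edgeR adjusted p = 0.0971, DESeq2 adjusted p = 0.0681). The groups were apart in both genes, narrowly so in Cyp51, where CCL19 replicate 3 and no-CCL19 replicate 2 differed by less than the spread within either group.

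Sqle, the squalene epoxidase and a rate-limiting oxygen-dependent step, had 47.4, 43.7 and 38.2 CPM with CCL19, against 31.0, 38.0 and 37.5 CPM without (0.28 ± 0.10; edgeR adjusted p = 0.108). Msmo1, which oxidizes methyl groups of the sterol ring, had 30.5, 24.1 and 26.3 CPM with CCL19, against 22.2, 21.8 and 23.2 CPM without (0.26 ± 0.10; edgeR adjusted p = 0.118). Lss, which closes squalene epoxide to lanosterol, had 46.4, 41.1 and 39.8 CPM with CCL19, against 30.8, 40.6 and 34.9 CPM without (0.26 ± 0.10; edgeR adjusted p = 0.134). CCL19 replicate 1 was the highest of the 6 libraries in all 3 of these genes, and in Lss no-CCL19 replicate 2 lay above CCL19 replicate 3.

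Dhcr7, the reductase of the last step to cholesterol, stood lower with 15.7, 15.9 and 15.2 CPM with CCL19, against 19.6, 18.8 and 18.2 CPM without (-0.28 ± 0.10, SE; edgeR adjusted p = 0.0936, DESeq2 adjusted p = 0.114). Its libraries were tight within each group and the groups were well apart, and the log2 fold change stayed between -0.30 and -0.25 with any library left out. Tm7sf2, a sterol reductase, had 4.87, 7.06 and 7.05 CPM with CCL19, against 9.09, 6.55 and 6.62 CPM without (-0.22 ± 0.18; edgeR adjusted p = 0.456), and its groups overlapped. The squalene synthase Fdft1 (0.08), the sterol dehydrogenase Nsdhl (0.09), the sterol isomerase Ebp (-0.06) and the sterol desaturase Sc5d (-0.03) were within 1 SE of 0.

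In the fatty acid group, all 3 genes had a log2 fold change above 0. Acaca (NCBI Gene 107476, chromosome 11, 84195438 to 84401651 in mm10, plus strand) had 90.1, 74.4 and 64.0 CPM in CCL19 libraries, against 47.8, 62.8 and 61.4 CPM in no-CCL19 libraries. Its log2 fold change was 0.41 ± 0.12 (SE; DESeq2 adjusted p = 0.0247, edgeR adjusted p = 0.0678), and it is the 1 gene of the 34 that the authors' deposited table lists, as higher with CCL19. The groups did not overlap, but the values of CCL19 replicate 3 and no-CCL19 replicates 2 and 3 lay close together. DESeq2 did not call Acaca without CCL19 replicate 1, without CCL19 replicate 2 or without no-CCL19 replicate 1, and the edgeR log2 fold change was 0.27 without CCL19 replicate 1 and 0.51 without CCL19 replicate 3.

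Fasn (NCBI Gene 14104, chromosome 11, 120805958 to 120824547, minus strand) had 1068, 910.0 and 735 CPM in CCL19 libraries, against 639, 833 and 739 CPM in no-CCL19 libraries (0.30 ± 0.13; edgeR adjusted p = 0.150, DESeq2 adjusted p = 0.0817). The groups overlapped, since CCL19 replicate 3 lay below no-CCL19 replicates 2 and 3. Without CCL19 replicate 1 the Fasn log2 fold change was 0.15, and without CCL19 replicate 3 it was 0.42 (edgeR adjusted p = 0.0276). Over all genes, the fit without CCL19 replicate 3 called 772 higher and 827 lower, so that pass is not particular to Fasn. Acly averaged 319 ± 20.2 CPM with CCL19 and 301 ± 16.5 CPM without (0.09 ± 0.08; edgeR adjusted p = 0.509).

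**Figure D3:**
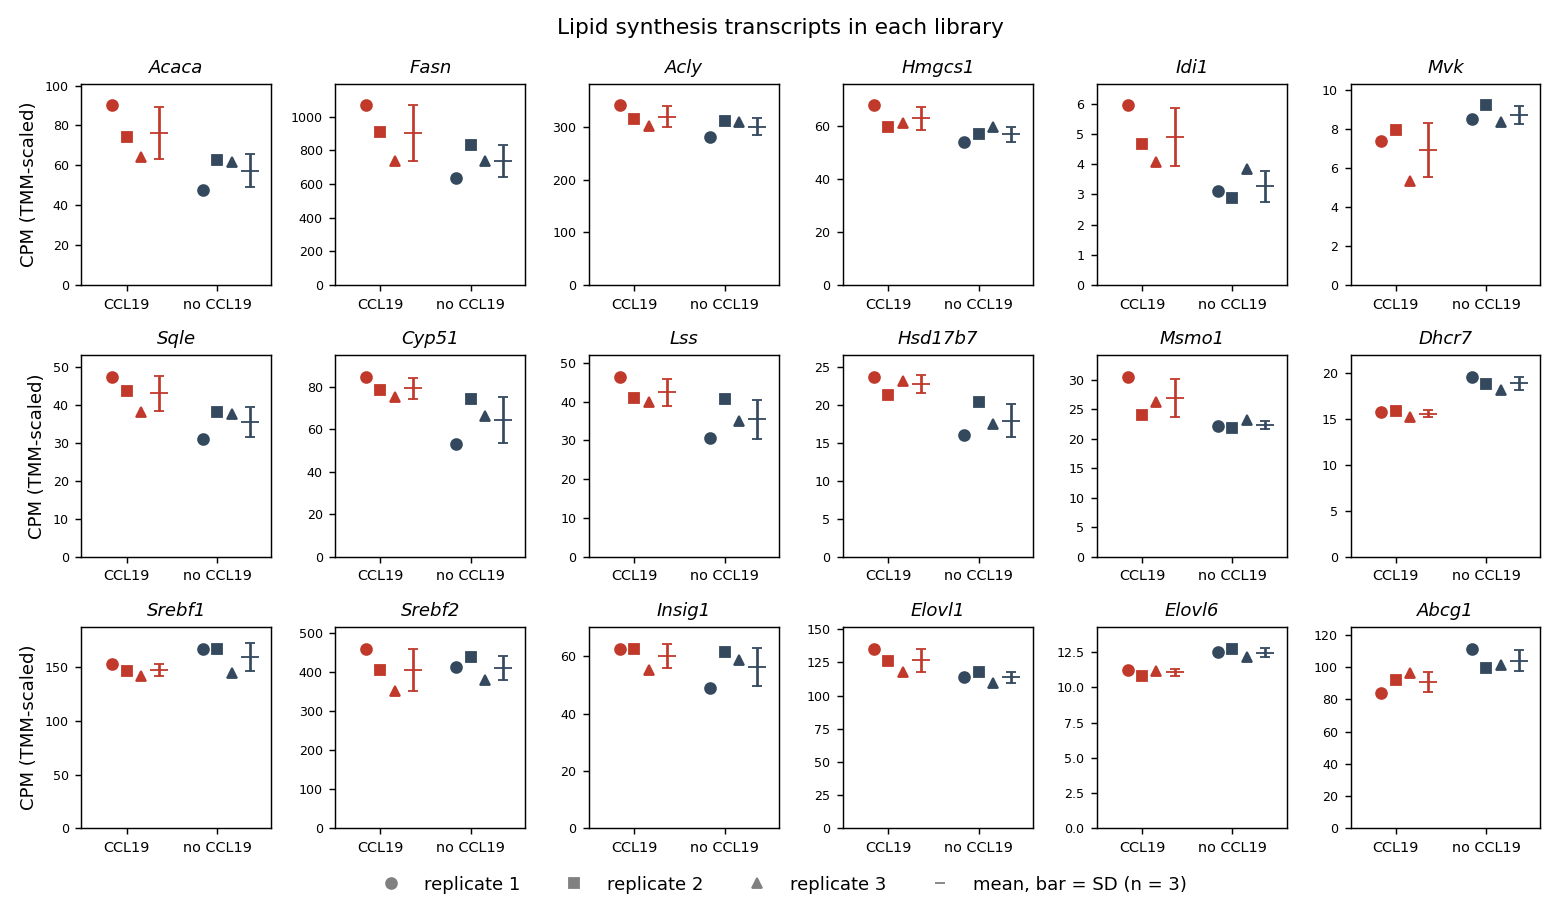
CPM in each library for 18 of the genes, CCL19 (red) left and no CCL19 (dark blue) right, with each replicate's own symbol and the mean and SD (n = 3) beside them; each axis starts at 0. Replicate 1 is the highest CCL19 point and the lowest no-CCL19 point for Acaca, Fasn, Sqle, Cyp51, Lss and Hsd17b7, whereas the Dhcr7 and Elovl6 points are tight within each group.

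None of the 5 genes of fatty acid elongation and desaturation passed, and their median log2 fold change was -0.06. Elovl1, which extends saturated and very long chains, had 135, 126 and 118 CPM with CCL19, against 114, 118 and 110.0 CPM without (0.15 ± 0.07, SE; edgeR adjusted p = 0.195). Elovl6, which extends palmitate and shorter chains, had 11.3, 10.8 and 11.1 CPM with CCL19, against 12.5, 12.7 and 12.2 CPM without (-0.18 ± 0.11; edgeR adjusted p = 0.316). The groups were apart in both, in opposite directions, so that per length Elovl1 exceeded Elovl6 by 25.0 to 28.4 times with CCL19 and 21.3 to 21.8 times without. Elovl5, which extends polyunsaturated chains, averaged 109 ± 8.78 and 114 ± 7.06 CPM (-0.06).

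The desaturases Scd1 and Scd2 introduce the double bond of oleate and palmitoleate and are close paralogs, so reads that match both make their counts uncertain. Scd2 averaged 19.3 ± 0.744 CPM with CCL19 and 20.1 ± 0.985 CPM without (-0.06 ± 0.09; edgeR adjusted p = 0.703). Scd1 averaged 2.70 ± 0.532 and 2.61 ± 0.189 CPM (0.04 ± 0.22; edgeR adjusted p = 0.933), and DESeq2 gave it no adjusted p because of its low counts. Scd2 was the main form in every library, at 5.42 to 7.16 times Scd1 per length with CCL19 and 6.11 to 7.67 times without.

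Of the 3 genes of sterol transport and export, Abcg1 stood lower at an unadjusted p under 0.05. This exporter, a target of the liver X receptors, had 83.8, 92.2 and 96.4 CPM with CCL19, against 112, 99.4 and 101 CPM without (-0.20 ± 0.08, SE; edgeR adjusted p = 0.127, DESeq2 adjusted p = 0.119). The groups were narrowly apart, with CCL19 replicate 1 lowest and no-CCL19 replicate 1 highest. Abca1, which exports cholesterol to apolipoproteins, averaged 24.2 ± 2.08 and 25.4 ± 2.01 CPM (-0.07), and the sterol carrier Stard4 averaged 18.2 ± 0.822 and 17.5 ± 0.737 CPM (0.05). In bulk RNA, fewer cells of a type and less RNA per cell cannot be told apart.

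Replicate 1 of each group lay at the ends of the range for most of the higher genes. CCL19 replicate 1 was the highest of the 6 libraries in all 8 genes that stood higher at an unadjusted p under 0.05 (Idi1, Sqle, Lss, Cyp51, Msmo1, Hsd17b7, Acaca and Fasn), and no-CCL19 replicate 1 was the lowest in 6 of them. Over all 34 genes, CCL19 replicate 1 was the highest in 15 and no-CCL19 replicate 1 the lowest in 11. Such counts were not made over all tested genes, so they do not set these genes apart. The median log2 fold change of the 8 genes was 0.30 with all libraries, 0.22 without CCL19 replicate 1 and 0.23 without no-CCL19 replicate 1, where 3 and 4 of the 8 kept an unadjusted p under 0.05. Each of the 8 kept a log2 fold change above 0.15 with any library left out. The 8 were chosen by their change in these same 6 libraries, so the kept sign largely follows from that choice. The same 2 libraries stood at the ends for the summed naive T cell markers, 4088 CPM in CCL19 replicate 1 and 5869 CPM in no-CCL19 replicate 1, and the part of this in the result was not tested.

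**Figure D4:**
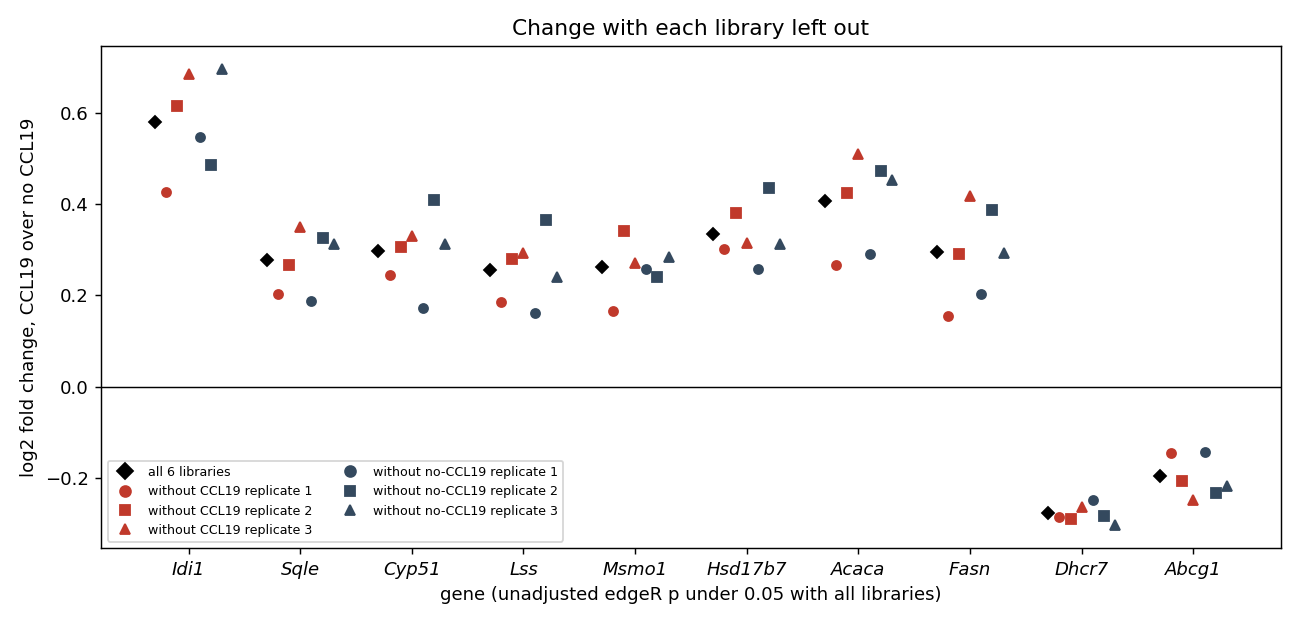
Log2 fold change (CCL19 over no CCL19, edgeR) of the 10 genes with an unadjusted p under 0.05, with all 6 libraries (black diamonds) and with each library left out (red, a CCL19 library; dark blue, a no-CCL19 library). Signs hold throughout, which largely follows from choosing the genes on all 6 libraries. For Acaca, Sqle, Cyp51, Lss and Fasn the lowest values are those without CCL19 replicate 1 or no-CCL19 replicate 1, down to 0.15 for Fasn.

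Over all genes, fold change ran with base composition, and the genes of this list took part in that trend. Spearman's rho between GC content of transcripts and log2 fold change was -0.33 across 11188 tested genes and -0.42 across the 34, given as descriptions because genes share the same 6 libraries. Of 10 equal classes of genes by GC content, the lowest had a median log2 fold change of 0.12 and includes Idi1 (40.8% GC). The highest class had a median of -0.16 and includes Srebf1 (59.8%), Mvk (59.3%), Mvd (59.2%) and Fasn (58.4%), of which Fasn alone stood above 0. After each library was given an offset for GC content and transcript length, Fasn had a log2 fold change of 0.41, Acaca 0.39, Idi1 0.47 and Dhcr7 -0.26. Under that offset Mvk had -0.20, Mvd -0.11 and Srebf1 0.03, so the difference of these high-GC genes was smaller or changed sign. Idi1 was smaller too, from 0.58 without the offset. So were Hmgcs1 (0.06, from 0.14) and Msmo1 (0.19, from 0.26), the genes of the list in the class next to the lowest. The offset was fitted to these same libraries without regard to group, so a shift against the GC trend follows from how it was made.

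**Figure D5:**
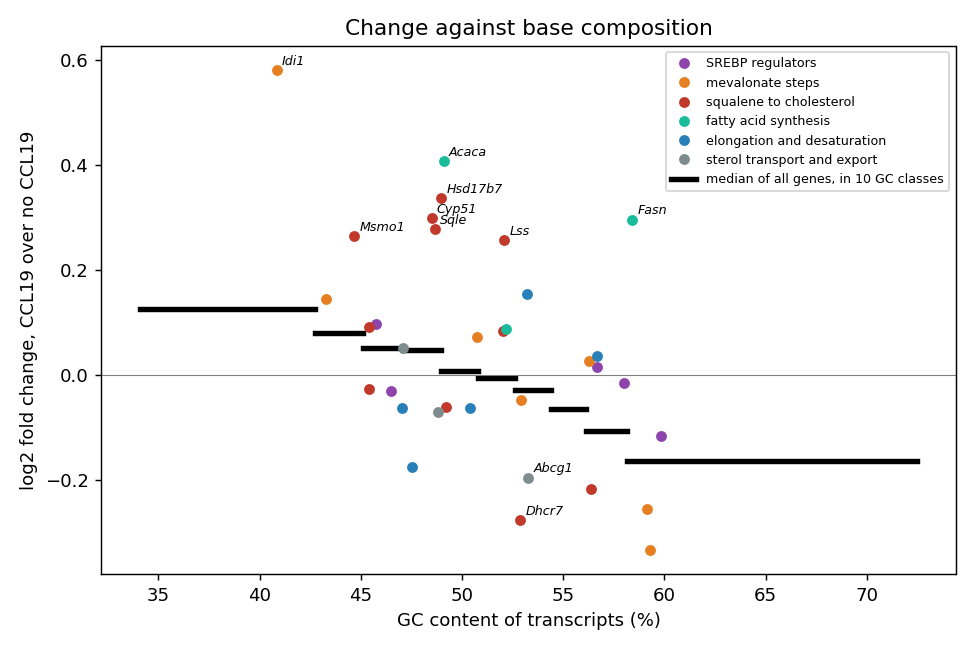
Log2 fold change (CCL19 over no CCL19) of the 34 genes against the GC content of their transcripts, coloured by role, with the median of all tested genes in each of 10 GC classes as black bars. The bars go from 0.12 at the lowest GC to -0.16 at the highest; Fasn, at 58.4% GC, lies above its bar, and the genes with an unadjusted p under 0.05 are named.

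A second list, of 73 further genes of these pathways found in the table, had 58 members tested. edgeR called 0 of them (0%). At an unadjusted p under 0.05 edgeR gave 14 higher, against 14.5% of all tested genes, and 9 lower, against 13.0%, together 39.7% of the 58 against 27.5%. DESeq2 called 8 higher and 3 lower of the 52 to which it gave an adjusted p (21.2%, against 12.2% of all genes). The median log2 fold change was 0.04.

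Among the genes DESeq2 called higher were Tmem97, a sterol-responsive membrane protein (0.44), Erlin1, a membrane protein of the endoplasmic reticulum (0.39), the elongation-cycle reductase Hsd17b12 (0.30), the acyl-CoA synthetases Acsl3 (0.38), Acsl4 (0.31) and Acsl5 (0.35), and the fatty acid-binding protein Fabp5 (0.40). Among those called lower were the transporter Abca7 (-0.41) and the retinoid X receptor Rxrb (-0.25), a partner of the liver X receptors. For the genes named, DESeq2 adjusted p lay between 0.00267, for Abca7, and 0.0432, for Acsl3, and edgeR adjusted p was 0.0505 or more for each. The authors' deposited table lists each gene named here in the same direction. Abca7 averaged 299 ± 26.1 CPM with CCL19 and 397 ± 46.9 CPM without, and its log2 fold change was -0.27 under the GC and length offset. Under that offset Tmem97 had 0.46, Erlin1 0.33, Hsd17b12 0.24, Acsl3 0.29, Acsl4 0.19, Acsl5 0.30, Fabp5 0.37 and Rxrb -0.13. The change was thus smaller for each gene named except Tmem97.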

How the data were processed

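The authors deposited unnormalized counts for each gene, with NCBI Gene IDs and mm10 coordinates per the file headers. STAR 2.5, featureCounts 1.5.0-p1 and mm10 stand in the submitters' processing notes, with no role or order; per the labels, libraries were made from total RNA with Illumina's TruSeq RNA kit. The sources used here name no strand setting, annotation release or rule for multi-mapped reads. Exons of 12 of the 34 genes overlap another annotated gene, 9 of them one on the opposite strand (such as Cyp51 with Akap9 and Fdft1 with Ctsb) and 4 one on the same strand (such as Tm7sf2 with Vps51), so their counts are uncertain. The authors' other deposited table gives 1168 changed genes with a direction. The submitters' processing notes also name DESeq2 1.28.1.

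The 3 CCL19 and 3 no-CCL19 libraries, grouped by sample titles, were compared with edgeR 4.0.16 in R 4.3.3 (TMM, filterByExpr, quasi-likelihood F test, Benjamini-Hochberg over all 11666 tested genes, threshold 0.05). DESeq2 1.42.0 (Wald test; 1168 calls, each in the authors' table with the same direction) and limma 3.58.1 (voom) were alternatives. The tests were tried on simulated counts. Log2 fold changes are from edgeR, and CPM are scaled by TMM. Each SE was derived as the absolute log2 fold change divided by the square root of edgeR's F statistic. GC content (median of transcripts) and exon length came from GENCODE M21 on the same assembly, since the count table holds no exon length. The offset for GC content and length used natural splines of 5 degrees of freedom. Further fits used the size factors of DESeq2, no filter, a filter of 1 CPM in 3 libraries, a robust prior, a replicate block, thresholds of 0.01 and 0.1, and each library left out.

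The members, role groups, further pathway list and markers were chosen with earlier results of these data known. Values in every library are given for the regulators, for genes whose groups did not overlap and for the 4 largest changes in each direction. Fasn and Lss were added after their values were seen. Some genes of the further pathway list are not reported here. Identity between proteins of paralogs was not analysed here.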

Additional observations from a re-analysis of the deposited data

How the results depend on the processing

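No call was made over all genes or among the 34 genes with DESeq2 size factors, limma-voom, a filter of 1 CPM in 3 libraries, either GC and length offset, or a threshold of 0.01. Over all genes, DESeq2 called 630 higher and 538 lower, no filter 803 and 797, a robust prior 267 and 262, and an adjusted p under 0.1 889 and 806. Leaving out one library gave 0 to 772 higher and 0 to 827 lower; the calls came without CCL19 replicate 3 (772 and 827) and without no-CCL19 replicate 3 (235 and 278). Of the 34, DESeq2 called 1 higher, no filter 5 higher (Idi1, Cyp51, Hsd17b7, Acaca and Fasn), and a threshold of 0.1 4 higher and 1 lower. Leaving out one library called 0 to 4 higher (Idi1, Sqle, Acaca and Fasn without CCL19 replicate 3) and 0 lower. The cause was not tested. The threshold of 0.1 applied to 11666 genes, and the fit without a filter to the 15905 genes with a count. Where any of the 34 was called in these fits, many other genes were called too. These counts therefore cannot be read as particular to the 34. DESeq2 without one library, chosen after seeing the data, called 0 to 5 of the 34. It called 0 without CCL19 replicate 1, CCL19 replicate 2 or no-CCL19 replicate 1, 3 without CCL19 replicate 3, 5 without no-CCL19 replicate 2 and 1 without no-CCL19 replicate 3. The share of all genes called in these DESeq2 fits is not given here, so the changes in count cannot be read as particular to the 34.

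The median log2 fold change of the 34 lay between 0.00 and 0.06 under every alternative. Of 510 values of single genes under alternatives, 482 kept sign and side of the threshold, 10 passed it and 18, in 9 genes, changed sign; the largest of those 18 was 0.1245 in size. With the GC and length offset these were Srebf1 (0.026, and 0.0265 with the replicate block too) and Srebf2 (0.11, and 0.11 with the block). Leaving out one library gave ranges across 0 for Srebf2 (-0.12 to 0.069), Scap (-0.044 to 0.077), Insig2 (-0.082 to 0.027), Pmvk (-0.039 to 0.093), Fdps (-0.10 to 0.0038), Nsdhl (-0.014 to 0.18), Sc5d (-0.057 to 0.0027) and Scd1 (-0.12 to 0.13). Correlations of deviations from group means were -0.164, 0.0814 and -0.0207 for same-numbered libraries, and -0.214 to 0.217 for differently numbered ones. With 3 libraries a group, these values cannot decide whether the replicate numbers pair the libraries. The replicate block called 0 genes higher and 0 lower, and its median over the 34 was 0.03.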
